A study of Mus musculus with 32 samples.

Results

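Bhlhe40, Bhlhe41 and Ciart encode repressors of transcription from E-boxes, short DNA motifs through which the circadian clock drives its target genes. They were chosen by symbol, as the 3 rows of a table of 41687 rows whose gene identifiers belong to them, and were followed through all 32 libraries of the study. The table held estimated RNA counts from lungs of adult C57b/6 mice (wild type, WT) and of Bmal1 knock-out mice (KO), 6 per genotype, labelled as female and bred in-house at 8 to 18 weeks of age. All 12 mice had a RiboZero library, for which ribosomal RNA was pulled down and removed, and a PolyA library, made from polyadenylated RNA. NoSelect libraries, made from total RNA without either step and combined from 6 preparations, covered mice 3 to 6 of each genotype (n = 4). The labels name no treatment. The allele of the knock-out, the cells in which it acts and the time of day of collection were not given in the sources used here. The replicates are separate mice by their numbers, and the libraries of a mouse in different preparations share its lung.

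In the clock of mammals, BMAL1 pairs with CLOCK or NPAS2, binds E-boxes and activates genes that include its own repressors. Bhlhe40 (DEC1) and Bhlhe41 (DEC2) encode basic helix-loop-helix proteins with an Orange domain that bind E-boxes themselves and repress there, and Bhlhe40 is also induced by hypoxia and by immune and growth signals. Ciart (CHRONO) encodes a protein of another kind, which binds BMAL1 and represses the activator complex. In the lung, DEC1 and DEC2 are also known from alveolar macrophages, whose identity and renewal depend on them.

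Bhlhe40 (ENSMUSG00000030103) lies at chr6:108660629-108666925 on the plus strand and Bhlhe41 (ENSMUSG00000030256) at chr6:145858243-145865558 on the minus strand. Ciart (ENSMUSG00000038550) lies at chr3:95878503-95882251 on the minus strand. All coordinates are those of GENCODE M21 on GRCm38. The promoter sequences of 2 of the 3 genes were found in the RefSeq promoter table (GRCm38.p6) and are shown because the E-box is the motif through which BMAL1 acts. Each is printed 5′ to 3′ on the strand of its gene, up to the base before the annotated gene, with the E-box CACGTG in capitals. The Bhlhe41 stretch is chr6:145865559-145865670 and the Ciart stretch chr3:95882252-95882478.
Bhlhe41: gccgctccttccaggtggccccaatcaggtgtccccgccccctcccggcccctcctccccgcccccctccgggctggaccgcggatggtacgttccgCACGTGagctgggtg
Ciart: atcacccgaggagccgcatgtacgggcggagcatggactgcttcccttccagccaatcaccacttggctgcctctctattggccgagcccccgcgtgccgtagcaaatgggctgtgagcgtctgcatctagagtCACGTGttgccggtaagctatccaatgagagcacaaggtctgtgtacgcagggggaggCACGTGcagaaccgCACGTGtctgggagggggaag

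The Ciart window held 3 CACGTG motifs, which begin 116, 58 and 44 bases before the RefSeq start. The Bhlhe41 window held 1, which begins 153 bases before the start. CACGTG reads the same on both strands. Of 32851 windows of 250 bases before a RefSeq start, 6.02% held it at least once and 0.0609% (20 windows) at least 3 times. Among 14 genes of a list of clock genes that were in the table, 3 (Cry1, Per1 and Tef) held it, each once. The variant CACGTT, searched on both strands, was in neither window and in 3.85% of all windows. A match is a description of the letters and not a binding site.

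A RiboZero library held 11638594 to 25801237 counts in all, a PolyA library 29924325 to 41548830 and a NoSelect library 74979802 to 115059756. In NoSelect, 67.8% to 71.5% of the counts fell on Lars2 and a transcript of Gm42418. The targeted gene is Arntl, the symbol of Bmal1. Its level in CPM, a count scaled to the size of its library by TMM within a preparation, was 19.1 to 23.6 in KO and 34.1 to 42.6 in WT RiboZero libraries, and 5.81 to 6.58 in KO and 9.70 to 10.4 in WT NoSelect libraries. In PolyA libraries the ranges overlapped, at 26.8 to 32.4 in KO and 31.9 to 37.9 in WT. Counts per gene cannot show which part of Arntl the reads came from, so they check the genotype labels only in part.

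Libraries of KO mouse 6 went against their labels. They held 0.0743 to 0.137 CPM of Xist, the RNA of the silenced X chromosome, against 401 CPM or more in every other library. Ddx3y, a gene of the Y chromosome, stood at 25.4 to 112 CPM in them and at 0 in all others. The NoSelect library of this mouse was also labelled as liver, but it held 0.137 CPM of the hepatocyte gene Alb (0.0275 to 0.345 in the other NoSelect libraries). Its level of Sftpc, which encodes a surfactant protein of the alveolar epithelium, was 1867 CPM, against 1268 to 1742. Many of the tests and some of the correlations and marker sums below are also given without this mouse.

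Of the members, Bhlhe41 fell in KO lungs by the PolyA libraries and lay below WT in every KO library of the other preparations. Bhlhe40 had lower means in KO that did not pass the test, with wide spread between mice, and the means of Ciart were close between genotypes. As a share of the WT mean, the KO mean of Bhlhe41 was 75.8% (RiboZero), 56.3% (PolyA) and 75.7% (NoSelect). In the same order the shares were 76.7%, 69.1% and 79.3% for Bhlhe40 and 96.1%, 99.5% and 103% for Ciart. At an adjusted p under 0.05 by edgeR with Benjamini-Hochberg adjustment, 1 of the 3 genes passed in PolyA (Bhlhe41), where 4.03% of all rows tested did. By the same test 0 of 3 passed in RiboZero (3.46% of all rows) and 0 of 3 in NoSelect (2.17%). At an unadjusted p under 0.05 by edgeR, 2 of 3 passed in RiboZero and in NoSelect, as did 2739 of 16710 and 2696 of 17124 rows. DESeq2 called 1 of 3, Bhlhe41, in each of these preparations, and 985 and 874 rows in all. In whole lung, fewer cells of a type and less RNA per cell cannot be told apart.

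**Figure D1:**
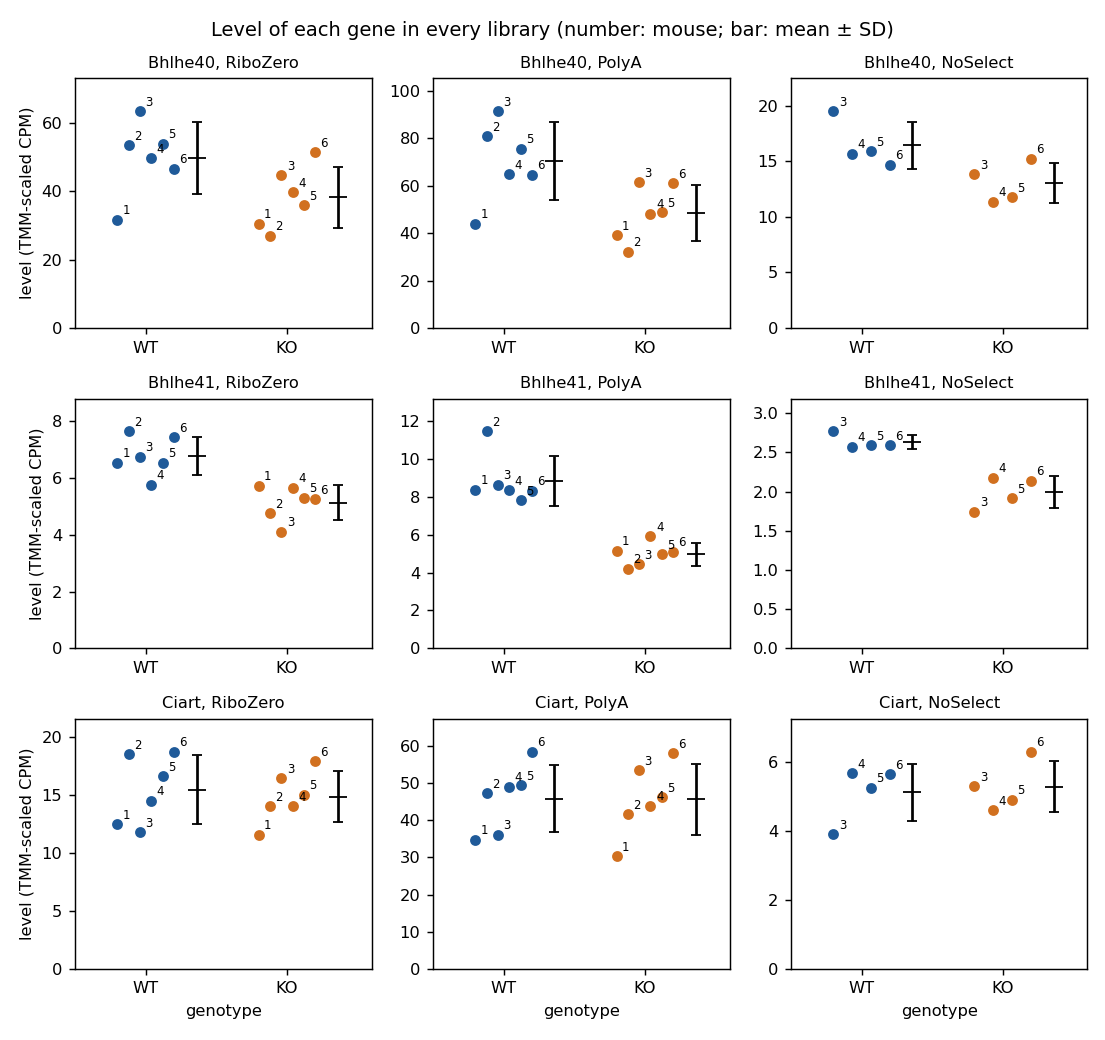
TMM-scaled CPM (vertical axis, from 0) of each gene (rows) in each preparation (columns) for WT and KO libraries; a point is a library, its number the mouse, and the bar the mean ± SD. For Bhlhe41 all KO points lie below all WT points in each preparation, while for Bhlhe40 and Ciart the genotypes overlap.

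Bhlhe41 had the lowest levels of the 3 genes, per length as well as in CPM. In RiboZero libraries it ranged from 5.77 through a median of 6.65 to 7.65 CPM in WT and from 4.11 through 5.28 to 5.73 CPM in KO. Every KO library was below every WT library, as in 1.53% of all rows tested. The highest KO library (mouse 1) lay just under the lowest WT library (mouse 4), and the counts behind these values were 46 to 154 per library. KO over WT gave a log2 fold change of -0.39 (SE 0.10, 95% interval -0.61 to -0.18), with an edgeR adjusted p of 0.0504 that narrowly missed the threshold. Leaving out WT mouse 4 gave an adjusted p of 0.0418 (log2 -0.44), leaving out KO mouse 1 gave 0.0464 (log2 -0.43), and leaving out KO mouse 6 gave 0.0719. Median-of-ratios scaling, DESeq2, a filter of at least 10 counts in every library and a fit of all 32 libraries also brought it under 0.05. It stayed above with no filter on low counts (adjusted p = 0.0966), with the number shared by a WT and a KO mouse as a block (0.139) and in mice 3 to 6 alone (0.227).

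In PolyA libraries the gap between genotypes was wider. WT levels of Bhlhe41 ran from 7.81 through a median of 8.36 to 11.5 CPM, and KO levels from 4.20 through 5.03 to 5.93 CPM. All 6 KO mice were below all 6 WT mice, as in 1.90% of all rows tested, and WT mouse 2 stood above the other WT mice. The fall was -0.83 on the log2 scale (SE 0.11, 95% interval -1.07 to -0.58; edgeR adjusted p = 0.00126). It was -0.74 without WT mouse 2 (adjusted p = 0.00131) and -0.83 without KO mouse 6 (adjusted p = 0.00325).

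In NoSelect libraries Bhlhe41 stood at 2.77, 2.58, 2.59 and 2.59 CPM in WT mice 3, 4, 5 and 6. The KO mice with these numbers had 1.74, 2.18, 1.91 and 2.14 CPM. The 4 WT values were close together and above all KO values, as in 4.62% of all rows tested. Their coefficient of variation was 3.475%, below the 6.53% that counting alone gives, so their closeness does not show a low spread between mice. By edgeR the log2 fold change was -0.40 (SE 0.087, 95% interval -0.60 to -0.20), with an edgeR adjusted p of 0.0589 (0.0583 without KO mouse 6), and DESeq2 gave an adjusted p of 0.0168.

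Bhlhe41 thus kept every KO library below every WT library in each of the 3 preparations. Of 15793 rows tested in all of them, 116 (0.735%) did the same. The preparations share mice, so they are repeated measurements of the same lungs and not independent groups.

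The KO effect on Bhlhe41 had its largest estimate in PolyA libraries, but its difference from the other preparations did not pass after adjustment. The main edgeR fits of this difference did not pair the libraries of a mouse, so spread between mice stayed in their error. Their unadjusted p for Bhlhe41 was 0.0088 for PolyA against RiboZero (rank 49 of 18164) and 0.0079 for PolyA against NoSelect (rank 57 of 18372). As the interaction of genotype and preparation, the log2 difference of the KO effect was -0.41 in PolyA against RiboZero (SE 0.14, 95% interval -0.71 to -0.11) and -0.45 in PolyA against NoSelect (SE 0.15, 95% interval -0.76 to -0.13), each with an edgeR adjusted p of 1. Between RiboZero and NoSelect it was 0.0034 (95% interval -0.29 to 0.29). With the mouse as a block the PolyA differences were -0.41 (adjusted p = 0.68) and -0.33 (adjusted p = 0.47). In mice 3 to 6 alone they were -0.28 and -0.25, and without KO mouse 6 they were -0.42 and -0.40. For Bhlhe40 and Ciart the 6 interaction estimates lay between -0.22 and 0.079, all with an adjusted p of 1. By edgeR 0 rows (0%) were called in each of the 3 interaction tests, and DESeq2 called 11, 13 and 9. In the edgeR fits 331 rows (PolyA against RiboZero), 412 (PolyA against NoSelect) and 244 (RiboZero against NoSelect) had an unadjusted p under 0.05. These are fewer rows than chance alone gives at that threshold, so the unpaired tests were too strict to show that KO effects were alike. With the mouse as a block 940, 1468 and 696 rows had such a p.

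In RiboZero and PolyA libraries Bhlhe40 had the highest coefficient of variation of the 3 genes among mice of a genotype (21.2% and 23.6% in WT and KO RiboZero, 23.4% and 24.1% in PolyA). In NoSelect Ciart had the highest, 16.2% against 12.9% for Bhlhe40 in WT and 14.0% against 13.9% in KO. In RiboZero libraries it ranged from 31.6 through a median of 51.5 to 63.4 CPM in WT and from 27.0 through 37.8 to 51.3 CPM in KO. The overlap came from WT mouse 1, which was lower than 4 of the 6 KO mice, and from KO mouse 6, the highest of its group. The log2 fold change was -0.39 (SE 0.17, 95% interval -0.76 to -0.014; edgeR adjusted p = 0.284), and without KO mouse 6 it was -0.49 (adjusted p = 0.151).

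PolyA libraries gave WT levels of Bhlhe40 from 44.0 through a median of 70.3 to 91.6 CPM and KO levels from 32.3 through 48.6 to 61.6 CPM. WT mouse 1 was again the lowest WT mouse and lay within the KO range, and the other 5 WT mice were above all KO mice. In the fit the log2 fold change was -0.53 (SE 0.19, 95% interval -0.94 to -0.13; edgeR adjusted p = 0.142). It was -0.63 without WT mouse 1 (adjusted p = 0.0573) and -0.60 without KO mouse 6 (adjusted p = 0.116).

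In NoSelect libraries WT mice 3, 4, 5 and 6 had 19.5, 15.7, 15.9 and 14.7 CPM of Bhlhe40, and the KO mice had 13.8, 11.3, 11.8 and 15.2 CPM. Only KO mouse 6 reached into the WT range. The log2 fold change was -0.33 (SE 0.12, 95% interval -0.60 to -0.070; edgeR adjusted p = 0.211), and it was -0.42 without KO mouse 6 (adjusted p = 0.102). The estimate for Bhlhe40 was negative in each of the 55 alternative fits of the 3 preparations, and none of them passed.

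Ciart levels overlapped between genotypes in each preparation. RiboZero libraries held from 11.8 through a median of 15.6 to 18.8 CPM in WT and from 11.6 through 14.6 to 18.0 CPM in KO, for a log2 fold change of -0.061 (95% interval -0.35 to 0.23; edgeR adjusted p = 0.879). PolyA libraries held from 34.7 through 48.2 to 58.4 CPM in WT and from 30.4 through 45.0 to 58.1 CPM in KO, for a log2 fold change of -0.0069 (95% interval -0.35 to 0.33; edgeR adjusted p = 0.988). The range of KO values nearly covered that of WT values in both preparations.

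In NoSelect libraries WT mice 3, 4, 5 and 6 held 3.91, 5.67, 5.26 and 5.65 CPM of Ciart, and the KO mice held 5.31, 4.60, 4.92 and 6.30 CPM. Here the lowest library was a WT mouse and the highest a KO mouse. Its log2 fold change was 0.048 (95% interval -0.27 to 0.36; edgeR adjusted p = 0.913). KO mouse 6 had the highest Ciart level of its group in all 3 preparations, and without it Ciart changed by a log2 of -0.12 (RiboZero), -0.083 (PolyA) and -0.050 (NoSelect). The 3 intervals allow a change of up to about 0.36 in either direction on the log2 scale, so that a fall the size of the PolyA estimate for Bhlhe41 lies outside each of them.

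**Figure D2:**
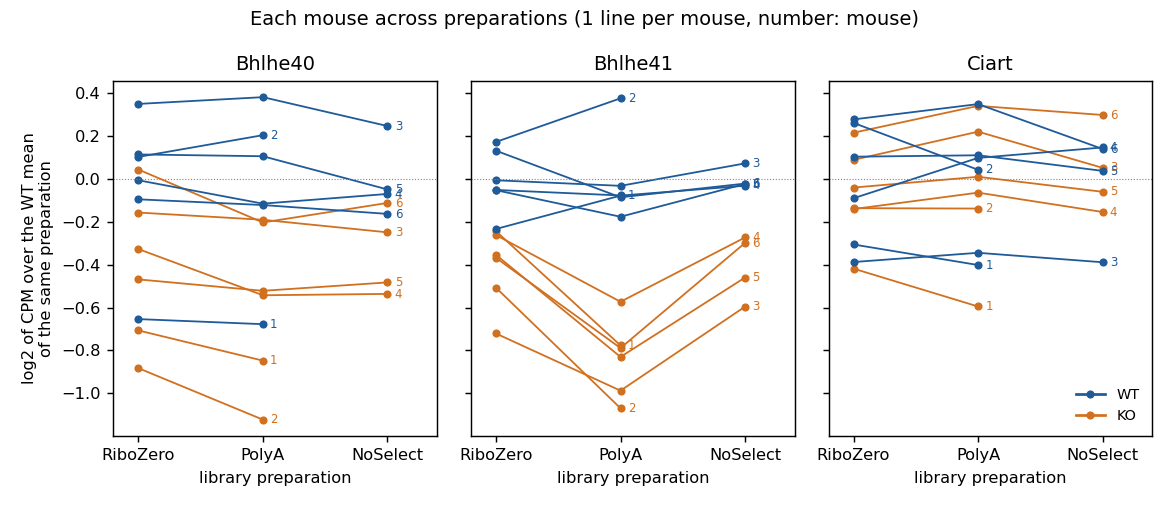
log2 of each library's CPM over the WT mean of the same preparation (vertical axis) by preparation (horizontal axis), with a line for each mouse, blue for WT and orange for KO. The lines of Bhlhe40 and Ciart run nearly level, and the KO lines of Bhlhe41 dip in PolyA, where KO stood at 56.3% of WT.

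How far the order of the mice within a genotype recurred between preparations differed by gene and genotype. WT mouse 1 had the lowest and WT mouse 3 the highest Bhlhe40 level of the WT mice in RiboZero and in PolyA, and WT mouse 3 was again the highest in NoSelect. KO mouse 2 was the lowest KO mouse for Bhlhe40 in RiboZero and in PolyA. For Ciart, WT mouse 6 was the highest WT mouse and KO mouse 1 the lowest KO mouse in both of these preparations. In NoSelect WT mouse 4 was the highest for Ciart, just above mouse 6. For Bhlhe41 WT mouse 2 was the highest WT mouse in RiboZero and in PolyA. Its lowest and highest KO mice differed between RiboZero and PolyA, as did the highest KO mouse for Bhlhe40 and the lowest WT mouse for Ciart. Spearman values for RiboZero and PolyA (n = 6), RiboZero and NoSelect (n = 4) and PolyA and NoSelect (n = 4) follow in this order. Among KO mice they were 0.83, 0.80 and 1 for Bhlhe41, 0.89, 0.80 and 0.80 for Bhlhe40, and 0.94, 1 and 1 for Ciart. Among WT mice they were 0.54, 0.80 and 0.40 for Bhlhe41, 0.94, 1 and 1 for Bhlhe40, and 0.77, 0.40 and 0.40 for Ciart. The coefficient of variation among WT RiboZero libraries was 21.2% for Bhlhe40, 19.3% for Ciart and 10.0% for Bhlhe41, where counting alone gives 3.26%, 5.79% and 8.67%.

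Of the pairs of members, Bhlhe40 and Bhlhe41 had the highest correlation over all libraries in PolyA and in NoSelect. In RiboZero Bhlhe40 and Ciart had the highest, by a small margin. The Pearson correlation of log2 CPM between Bhlhe40 and Bhlhe41 was 0.40 in RiboZero (n = 12), 0.66 in PolyA (n = 12) and 0.69 in NoSelect (n = 8). The Spearman values were 0.48, 0.63 and 0.67. After each group's mean was subtracted the Pearson correlation was -0.039, 0.29 and 0.12. Between Bhlhe40 and Ciart the Pearson values were 0.42, 0.39 and -0.14 over all libraries and 0.43, 0.49 and -0.073 within groups. The Spearman values in NoSelect were 0.071 and 0.048, so the sign there depended on the measure. Between Bhlhe41 and Ciart the Pearson values lay between -0.21 and 0.11 over all libraries and between -0.22 and 0.048 within groups. Without KO mouse 6 the values within groups were -0.090, 0.27 and -0.20 for Bhlhe40 and Bhlhe41 and 0.30, 0.40 and -0.58 for Bhlhe40 and Ciart. For Bhlhe41 and Ciart they were 0.016, -0.11 and -0.63. These are descriptions over libraries that share mice and scaling.

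Among 12416 genes compared, those most like Bhlhe40 by this measure were Thbs1 (mean r 0.93), Trib1 (0.92) and Fosl2 (0.92). For Bhlhe41 they were Dcn (0.91), Nr1d1 (0.91) and Nr1d2 (0.90), and the last of these are genes of the clock list below with large KO effects. For Ciart they were Anks1 (0.89), Gjc1 (0.87) and Fgfr3 (0.86). Within groups the genes most like Bhlhe40 were Rcan1 (0.91), Thbs1 (0.89) and Trib1 (0.88), and the same 3 genes as before led for Ciart, at 0.93 for Anks1, 0.92 for Gjc1 and 0.91 for Fgfr3. Without KO mouse 6, the 3 genes named over all libraries were again the first 3 for Bhlhe40 and for Bhlhe41, and 2 of 3 were for Ciart. Within groups 2 of the 3 stayed among the first 3 for Bhlhe40 and 2 of 3 for Ciart.

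Compared between preparations, Ciart was higher in PolyA libraries than in the others, Bhlhe41 was highest in NoSelect, and the estimates for Bhlhe40 were the smallest of the 3 genes. A call between preparations required an adjusted p under 0.05 and a log2 fold change of at least 1 in size. Of the 3 members, 1 was called between PolyA and RiboZero (Ciart), where 23.6% of all rows tested were. By edgeR 0 of 3 were called between PolyA and NoSelect (25.1% of all rows) and 0 of 3 between RiboZero and NoSelect (4.30%). These fits against NoSelect set 12 mice against 8 without pairing, so they compared unlike sets of mice. With the mouse as a block Ciart was a call between PolyA and NoSelect (log2 1.112). It was higher in PolyA in 8 of 8 mice. At an unadjusted p under 0.05 by edgeR, 3 of 3 passed between RiboZero and NoSelect, as did 8969 of 17502 rows. Between PolyA and NoSelect 2 of 3 did, and the number of all rows is not given here. DESeq2 called 0 of 3 in each of these comparisons.

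Levels of different genes are set side by side as CPM per kilobase of exon on a scale shared by all 32 libraries. Ciart stood at 5.33 ± 0.881 in RiboZero (SD, n = 12), 12.7 ± 2.51 in PolyA (n = 12) and 6.53 ± 0.932 in NoSelect (n = 8). Its lowest PolyA library (8.37) was above its highest RiboZero library (6.56) and above its highest NoSelect library (7.95). PolyA over RiboZero gave a log2 fold change of 1.26 (SE 0.11, 95% interval 1.03 to 1.49; edgeR adjusted p = 1.15e-10; 1.25 without KO mouse 6), and RiboZero over NoSelect gave -0.30 (SE 0.10; edgeR adjusted p = 0.0206).

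Between PolyA and NoSelect the log2 fold change of Ciart was 1.00 (SE 0.12, 95% interval 0.75 to 1.25; edgeR adjusted p = 2.14e-07), just short of the size required for a call. With the mouse as a block, which compares libraries of the same mouse, it was 1.11 (SE 0.032; adjusted p = 9.52e-12), which is a call. Leaving out 1 library made it a call in 4 of 20 cases, which were PolyA WT mouse 1 (1.012), PolyA KO mouse 2 (1.013), PolyA KO mouse 4 (1.007) and NoSelect KO mouse 6 (1.009). Without both libraries of KO mouse 6 it was 0.97.

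Bhlhe41 stood at 0.705 ± 0.124 CPM per kilobase in RiboZero, 0.641 ± 0.2001 in PolyA and 0.976 ± 0.156 in NoSelect (SD, n = 12, 12 and 8), and these ranges overlapped. Fitted log2 fold changes were -0.61 for PolyA over NoSelect (SE 0.088; edgeR adjusted p = 2.65e-06), -0.47 for RiboZero over NoSelect (SE 0.065; edgeR adjusted p = 5.53e-06) and -0.17 for PolyA over RiboZero (SE 0.082; edgeR adjusted p = 0.0566). Bhlhe41 was lower in each selected preparation than in NoSelect in 8 of 8 mice, by less than the size required for a call. In the same order the values without KO mouse 6 were -0.61, -0.46 and -0.16. With the mouse as a block PolyA over RiboZero was -0.16 (SE 0.07013; edgeR adjusted p = 0.0381), and 10 of 12 mice were lower in PolyA.

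Bhlhe40 stood at 7.42 ± 1.88, 7.91 ± 2.30 and 8.89 ± 1.55 CPM per kilobase, again with overlap. Its log2 fold changes were 0.089 for PolyA over RiboZero, -0.14 for PolyA over NoSelect and -0.27 for RiboZero over NoSelect (edgeR adjusted p = 0.542, 0.329 and 0.0757; 0.11, -0.17 and -0.27 without KO mouse 6). The libraries of a mouse are paired, and within mice Bhlhe40 was lower in RiboZero than in NoSelect in 8 of 8. When each mouse was a block the estimate was -0.13 (SE 0.023, edgeR adjusted p = 0.000359). The fits without the block also held mice with no NoSelect library, so their estimates against NoSelect compare unlike sets of mice. The block gave 0.083 for PolyA over RiboZero (SE 0.028; edgeR adjusted p = 0.0104), with 9 of 12 mice higher in PolyA, and -0.0073 for PolyA over NoSelect (SE 0.034; edgeR adjusted p = 0.849). The differences that passed were far below the size required for a call.

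**Figure D3:**
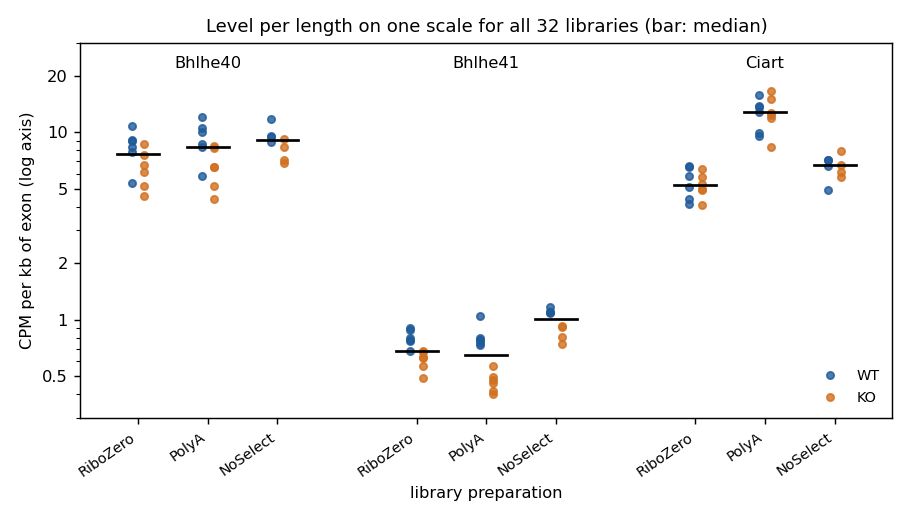
CPM per kilobase of exon (logarithmic vertical axis) of each gene by preparation (horizontal axis) on a scale shared by all 32 libraries; a point is a library, blue for WT and orange for KO, and the bar is the median of the preparation. The median of Ciart lies above that of Bhlhe40 in PolyA alone, and Bhlhe41 stays at 0.402 to 1.17, below both other genes in every library.

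The order of the levels per length therefore changed with the preparation. Bhlhe40 was above Ciart in 11 of 12 RiboZero and in 8 of 8 NoSelect libraries, and Ciart was above Bhlhe40 in 11 of 12 PolyA libraries. As groups of libraries, these neighbours overlapped in each preparation. This change rests on the division by exon length (2261 bases for Ciart, 4705 for Bhlhe40). By counts, the log2 ratio of Ciart to Bhlhe40 in PolyA was -1.34 to -0.145 in WT and -0.363 to 0.369 in KO. It was above 0 in KO mouse 2 alone, and below 0 in every RiboZero and NoSelect library. Per length, Bhlhe41 was below both in all 32 libraries. The log2 ratio of Ciart to Bhlhe41 counts within a library, which no scaling can move, was 1.17 ± 0.238 for WT against 1.53 ± 0.345 for KO in RiboZero, and 2.37 ± 0.351 for WT against 3.18 ± 0.390 for KO in PolyA (SD, n = 6 each). In NoSelect it was 0.945 ± 0.302 for WT against 1.401 ± 0.240 for KO (SD, n = 4 each), and the genotypes overlapped in each preparation.

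Reads of some members may be shared with other genes. Of the 31-base words of the Ciart transcripts, 20.8% also occur on the same strand in Gm9176, which was not analysed here. For Bhlhe40 this share was 0.0428% and for Bhlhe41 0.133%. On the opposite strand 17.7% of the words of Bhlhe41 occur in other genes, against 1.93% for Bhlhe40 and 0% for Ciart. C920021L13Rik, which overlaps Ciart on the opposite strand, held 2.80% to 4.97% as many counts as Ciart, and 0610040F04Rik, which overlaps Bhlhe40 likewise, held 2 counts at most. Gm43909 overlaps Bhlhe41 on the opposite strand and was not analysed here. The kits mark strand, but whether the counting used it was not given in the sources used here. The levels of Ciart and, if counting ignored strand, of Bhlhe41 are therefore uncertain to that extent.

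Other genes of the pathway are described by lists. Of 17 genes of the clock and its outputs, 5 rose and 2 fell in KO RiboZero libraries, 4 rose and 3 fell in PolyA, and 6 rose and 2 fell in NoSelect. For this list and those below, the share of all rows called was 3.46%, 4.03% and 2.17% in the same order. The median log2 fold change of the list was 0.11, -0.058 and 0.099, against medians over all rows of -1.23e-05, -0.00292 and 0.000533. Nr1d1 and Nr1d2, which encode the REV-ERB repressors, fell the most. The log2 fold change of Nr1d1 was -4.86 (SE 0.32), -5.40 (SE 0.31) and -4.77 (SE 0.17) in RiboZero, PolyA and NoSelect, with edgeR adjusted p-values of 3.33e-06, 7.93e-07 and 1.50e-05. Without KO mouse 6 it was -4.80, -5.45 and -4.72, and the list counted the same calls in RiboZero and PolyA and 1 fewer in NoSelect, where Tef no longer passed.

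Nr1d2 changed by -3.44, -3.52 and -3.02 in the same order. Npas2, which encodes the partner that can replace CLOCK, rose by 1.71 (SE 0.097), 1.80 (SE 0.087) and 1.62 (SE 0.078), with edgeR adjusted p-values of 7.89e-07, 1.85e-07 and 4.22e-05 (1.71, 1.80 and 1.58 without KO mouse 6). These genes were named as extremes of the list. Set beside them, the estimates for Bhlhe40 and Bhlhe41 (-0.33 to -0.83) were small. Those for Ciart (-0.061 to 0.048) were smaller still. Cry1 and Per2 were among the genes that also changed more than the members in each preparation. Other clock genes were nearer to Bhlhe40 and Bhlhe41 in size. In RiboZero, PolyA and NoSelect, Wee1 changed by -0.54, -0.76 and -0.38 and Cry2 by 0.43, 0.32 and 0.44. Clock (0.11, 0.26 and 0.099) and Nfil3 (0.073, -0.058 and 0.071) changed less.

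**Figure D4:**
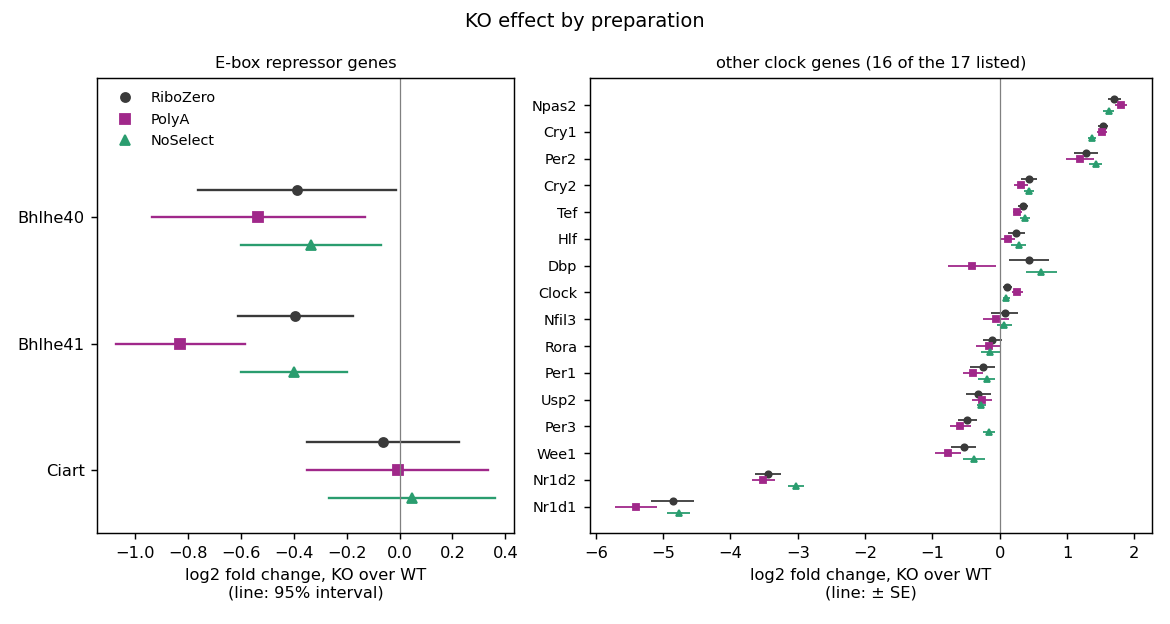
log2 fold change of KO over WT (horizontal axis) for the 3 E-box repressor genes with 95% intervals (left) and for 16 other clock genes with standard errors (right), by preparation. Bhlhe41 is the member whose intervals lie farthest below 0, Ciart straddles 0, and Nr1d1 reaches -5.40; the panels have different scales.

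Of 10 relatives with an Orange domain (Hes and Hey genes, effectors of Notch signalling), 6 to 7 passed the filter on low counts. In each preparation 1 of them fell, Heyl, by log2 values of -0.83 (SE 0.14), -0.82 (SE 0.12) and -0.61 (SE 0.091) in RiboZero, PolyA and NoSelect (edgeR adjusted p = 0.00655, 0.0021 and 0.015). The NoSelect call was lost without WT mouse 5, and without KO mouse 6 Heyl passed in all 3 preparations (-0.79, -0.81 and -0.53). Hes1, Hes2 and Hey1 did not pass. Their log2 fold changes were -0.021 to 0.057 for Hes1, 0.27 to 0.54 for Hes2 and 0.13 to 0.27 for Hey1. The list medians were 0.098, 0.032 and 0.073.

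Of the 4 Id genes, whose proteins lack the basic region and block helix-loop-helix factors, 0 passed in each preparation by edgeR, 1, 2 and 1 had an unadjusted p under 0.05 in RiboZero, PolyA and NoSelect, and DESeq2 called 1 in PolyA and 0 in the other preparations. The log2 fold changes of Id1, Id2, Id3 and Id4 lay between -0.23 and 0.20, with list medians of -0.026, -0.054 and -0.078. Of 20 other E-box factors of the helix-loop-helix zipper class, Mxi1, a MYC antagonist, rose in each preparation, by 0.23 (SE 0.058), 0.32 (SE 0.052) and 0.26 (SE 0.046), with edgeR adjusted p-values of 0.046, 0.00457 and 0.0257. The RiboZero call of Mxi1 was lost in 10 of the 12 fits that each left out 1 library. In NoSelect 3 genes passed, and 5 of the 8 fits that left out 1 library called none of them. There Mnt also rose and Myc fell, the latter by 0.75 (SE 0.13; edgeR adjusted p = 0.0264), and the list medians were -0.003, 0.0066 and 0.0082. Mycn (log2 0.62 to 0.97) and Mxd3 (-0.83 to -0.50) did not pass in any preparation. Without KO mouse 6 Mxi1 passed in all 3 (0.25, 0.34 and 0.25), and in NoSelect Mycn passed (log2 1.11; edgeR adjusted p = 0.0275) where Mnt did not.

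Of 12 hypoxia-inducible genes, listed because Bhlhe40 responds to hypoxia, 2 rose in RiboZero, the same 2 in PolyA and 1 in NoSelect. They were Adm, which encodes the vasodilator adrenomedullin, and Ankrd37. Adm changed by 0.76 (SE 0.18), 0.78 (SE 0.13) and 0.77 (SE 0.12), with edgeR adjusted p-values of 0.0338, 0.00409 and 0.0181, while Ankrd37 changed by 0.95, 0.72 and 0.76 and passed in the first 2 (adjusted p = 0.0267 and 0.0374). The lowest of the list were Car9 (-0.62 to -0.11) and Ndrg1 (-0.40 to -0.32), which did not pass. The list medians were -0.013, -0.025 and 0.026. Leaving out single libraries brought the RiboZero count down to between 0 and 1 in 8 of 12 fits, and the PolyA count to 1 in 8 of 12. The NoSelect call of Adm was lost without WT mouse 5 and without WT mouse 6. Adm passed in all 3 preparations without KO mouse 6 (0.81, 0.82 and 0.82), and Ankrd37 no longer passed in PolyA (edgeR adjusted p = 0.0598).

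Markers of cell types were summed per library to show what moved with genotype. Alveolar macrophage markers, 10 genes, summed to 278 to 525 CPM in WT and 330 to 551 CPM in KO RiboZero libraries, with 0 of them at 0, and 1 of 10 fell in each preparation (Itgax, an integrin of macrophages and dendritic cells; in NoSelect its edgeR adjusted p was 0.0388, and 0.0626 without KO mouse 6). In PolyA the sums were 239 to 447 CPM in WT and 276 to 401 CPM in KO, and in NoSelect 107 to 132 and 89.8 to 139 CPM. The sums of the genotypes overlapped in all 3 preparations. The 9 lung epithelium markers summed to 20340 to 25690 CPM in WT and 22210 to 28560 CPM in KO RiboZero libraries, with 0 at 0. Without KO mouse 6 the highest KO sum was 27160 CPM. The sum mixes alveolar and airway cells, and the airway gene Scgb1a1 made up a large part of it. Its median was 11150 CPM in WT and 13260 CPM in KO RiboZero libraries. In PolyA the medians were 40200 and 51960 CPM, and in NoSelect 3446 and 4109 CPM. Scgb1a1 did not pass in any preparation. Of the 9 markers, 2 changed in each preparation, where 3.46%, 4.03% and 2.17% of all rows did. Sftpa1, which encodes a surfactant protein, fell in all 3, by log2 values of -0.49 in RiboZero (SE 0.088), -0.66 in PolyA (SE 0.11) and -0.57 in NoSelect (SE 0.0901; edgeR adjusted p = 0.00776, 0.00457 and 0.0179), and its KO libraries lay below all WT libraries in each. Sftpd, another surfactant protein gene, fell in PolyA (-0.499) and NoSelect (-0.59), and Ager, a gene of alveolar type I cells, rose in RiboZero (0.23). Without KO mouse 6 Sftpa1 and Sftpd fell in all 3 preparations, Lamp3 also fell in NoSelect, and Ager did not pass. The 10 liver markers summed to at most 15.98 CPM in any library, with up to 6 of them at 0.

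The 4 neutrophil markers had median log2 fold changes of 0.91, 1.00 and 0.81 in RiboZero, PolyA and NoSelect. With all mice 0 of 4 passed in each by edgeR, with lowest adjusted p-values of 0.112, 0.0704 and 0.172, and 3, 3 and 2 had an unadjusted p under 0.05. Without KO mouse 6, 2 of 4 rose in each preparation, S100a8 (log2 1.37, 1.46 and 1.697; edgeR adjusted p = 0.0331, 0.0255 and 0.0468) and S100a9 (log2 1.349, 1.51 and 1.54; edgeR adjusted p = 0.0341, 0.0176 and 0.0386). The sums of the 4 markers were 26.1 to 44.5 CPM in WT and 23.0 to 94.95 CPM in KO RiboZero libraries, and 34.6 to 59.3 CPM in WT and 30.1 to 152 CPM in KO PolyA libraries. KO mouse 6 was the lowest KO mouse in both, and 3 of the 5 other KO mice were above all WT mice. In NoSelect the WT sums were 7.36 to 8.81 CPM, KO mice 3, 4 and 5 stood above them at 14.0, 21.6 and 11.3 CPM, and KO mouse 6 stood below them at 6.59 CPM. The 7 markers of T, B and NK cells had median log2 fold changes of -0.35 to -0.13 and a lowest edgeR adjusted p of 0.127, and the 4 of cardiomyocytes had medians of -0.29 to -0.13 and a lowest adjusted p of 0.273. The part of these cell types in the levels of Bhlhe40, Bhlhe41 and Ciart was not tested.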

How the data were processed

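The authors deposited estimated counts per gene in 1 table, whose 32 columns were each matched to a library by name. The submitters' processing notes name Salmon 1.4.0, UMI-tools 1.1.1 and the build GRCm38, without their roles. Input was 200 ng of RNA (15 ng for NoSelect) with 11 cycles of PCR, per the labels' protocols. Of the values, 12.81% were not whole, and 90 of 96 values of the 3 genes were. Counts were rounded. GENCODE M21 supplied symbols, coordinates and exon lengths, and the authors may have used another annotation.

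Within a preparation, KO and WT were compared in R 4.3.3 with edgeR 4.0.16 (TMM scaling, filterByExpr, glmQLFit, glmQLFTest, Benjamini-Hochberg adjustment over all rows tested). Comparisons of preparations used both genotypes, with genotype in the model, and differences of the KO effect as an interaction. Standard errors and 95% intervals belong to these fits. P-values of KO over WT within a preparation measure the effect against the spread between these mice. The main fits between preparations and of the interaction had no term for the mouse. In them the libraries of a mouse counted as separate, and those against NoSelect included mice that had no NoSelect library. The fits were tested on simulated counts. Replicates differed by more than sampling noise (chi-square per degree of freedom 7.02 to 69.9 over 72 pairs).

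Libraries of a mouse in different preparations are paired by the mouse's number. Their deviations from the group means correlated at 0.505 to 0.803 over 13026 rows, highest with the same mouse in 28 of 28 cases. Genes named from the lists were the 2 highest and 2 lowest by mean change over the preparations, and the others named are calls seen in the data. Likeness used genes with a mean of at least 1 CPM in each preparation. The members and lists were chosen with earlier results of these data known. 1 gene of the clock list is counted but not reported by itself here. Other settings tried were median-of-ratios size factors, DESeq2 1.42.0, no filter or a stricter one, blocks, mice 3 to 6 alone, all 32 libraries in a single fit, removal of Lars2 and the Gm42418 transcript and leaving out libraries. Leaving out the libraries of KO mouse 6 from comparisons of preparations, lists, markers and correlations was chosen after seeing the data.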

Additional observations from a re-analysis of the deposited data

Results flagged for a closer look

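In 18 groups of libraries checked for a value far from the others, 2 were singled out, and chance alone flags about 1 in 20 such groups. The PolyA library of WT mouse 2 held 11.45 CPM of Bhlhe41, and its gap to the next WT library was 0.775 of the range of the group. The NoSelect library of WT mouse 3 held 2.769 CPM of Bhlhe41, with a gap of 0.907 of the range, in a group whose other values lay close together. The coefficient of variation of that group (3.475%) was below counting error (6.53%). In both cases the high library was a WT library, and KO libraries stayed below WT without it. The log2 fold change of KO over WT was -0.74 in PolyA without the former (edgeR adjusted p = 0.00131) and -0.37 in NoSelect without the latter (edgeR adjusted p = 0.129).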

How the results depend on the processing

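Over the 27 comparisons of the 3 genes, 678 of 693 alternative values kept their side of the threshold, with uncalled estimates near 0, such as those of Ciart between genotypes, taking either sign. The other 15 passed it where the reported fit had not, the cause of which was not tested, and 0 lost a call or reversed a called direction. Bhlhe41 in PolyA stayed called in all 20 alternatives (log2 -0.88 to -0.70; edgeR and DESeq2 adjusted p from 2.21e-10 to 0.0181). Bhlhe41 in RiboZero passed with median-of-ratios size factors (-0.3942), DESeq2 (-0.3785), at least 10 counts in every library (-0.3909) and all 32 libraries in a single fit (-0.391), and leaving out 1 library gave -0.4397 to -0.3418 (edgeR adjusted p 0.0418 to 0.112), while mice 3 to 6 alone gave -0.37 (adjusted p = 0.227). In NoSelect it passed with DESeq2 (-0.3947), and leaving out 1 library gave -0.443 to -0.3403. Ciart in PolyA against NoSelect became a call without a filter on low counts (1.06), with the mouse as a replicate block (1.112), without Lars2 and the Gm42418 transcript (1.019) and in mice 3 to 6 alone (1.082), while leaving out 1 library gave 0.9013 to 1.013. The mouse block changed no other call. WT and KO mice with the same number share only that number (correlation of deviations -0.167 to 0.277, highest with the own number in 3 of 16 pairs). With that number as a replicate block, Bhlhe41 had an edgeR adjusted p of 0.139, 0.0181 and 0.202 in RiboZero, PolyA and NoSelect. The rows called between KO and WT went from 579, 694 and 372 to 985, 1355 and 874 with DESeq2, to 372 in RiboZero and 103 in NoSelect with the number block, to 891 and 1564 in RiboZero and PolyA with all 32 libraries, and to 255 in RiboZero with mice 3 to 6. Leaving out 1 library gave as few as 380, 442 and 148, and at most 1066 in PolyA without WT mouse 2. Between preparations, the calls of PolyA against RiboZero (4292) and against NoSelect (4619) became 6552 and 7039 without a filter and 2560 and 2902 with at least 10 counts in every library, where RiboZero against NoSelect went from 752 to 301. Counting error for Bhlhe41 in RiboZero was 8.67% to 10.3%.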
